A study of Rattus norvegicus with 47 samples.

Results

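The 9 claudins of the kidney tubule followed here, Cldn1, Cldn2, Cldn3, Cldn4, Cldn7, Cldn8, Cldn10, Cldn16 and Cldn19, were measured in RNA-Seq libraries of rat kidney cortex. They were chosen by gene symbol, as a family named with earlier results of these data known, and 9 of 9 were found among the 32545 genes of the count tables. Every rat was a male Wistar rat. Lithium-amiloride (LiAM) rats received lithium carbonate in the chow (60 mM per the labels) together with 0.2 mM amiloride in the drinking water. Lithium rats received the lithium chow without amiloride, and control rats ate plain chow. Per the study's methods, the lithium diet of the short series was dosed per kg of dry food and held less lithium in the first week. Exposure lasted 14 days, 28 days or 6 months. In both short series amiloride was given from the first day of lithium. In the 6 month series it was added after the first month, per the study's methods. The lithium-fed rats also had a salt block, and the age of the rats was not given in the sources used here. A library is 1 rat's cortex, a mixture of many cell types, so fewer cells of a type and less RNA per cell cannot be told apart.

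Claudins are 4-pass membrane proteins of the tight junction, the seal between neighbouring epithelial cells, and each nephron segment carries its own combination of them. Some form pores that let ions pass between the cells, and others close the junction. Cldn2 forms the cation and water pore of the proximal tubule, and Cldn10 forms pores that carry anions in the proximal tubule or sodium in the thick ascending limb, depending on its isoform. Cldn16 and Cldn19 together let calcium and magnesium through in the thick ascending limb, where their human counterparts are mutated in familial magnesium wasting. Cldn3, Cldn4, Cldn7 and Cldn8 belong to the distal nephron and collecting duct, and Cldn1 is a barrier-forming claudin best known from the parietal epithelium of the glomerulus and from skin.

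The count tables held 47 libraries, and 44 were compared. At 14 days there were 5 LiAM, 6 lithium and 6 control libraries, and at 28 days there were 5, 6 and 6. At 6 months 3 libraries labelled lithium, 4 labelled control and 3 labelled LiAM were compared. The libraries left out were LiAM 2 at 14 days and, at 6 months, labelled lithium 4 and labelled LiAM 4, a choice that follows the study. The study removed samples that fell outside their group in a principal component analysis. The choice thus rests on expression itself and can narrow the spread within groups. Libraries of the 14-day series held between 10399818 and 15618395 counts, those of the 28-day series between 14779709 and 17554304, and those of the 6 month series between 21245870 and 25415685. Levels are given as CPM, the counts of a gene scaled to a common library size (TMM scaling within a time), so they can be compared between libraries of 1 time and not between genes, whose lengths differ. Proximal tubule markers were abundant, as the cortex label requires (Slc34a1, the phosphate transporter, had group medians of 3743 to 4607 CPM). A gene was called when the edgeR quasi-likelihood test gave a Benjamini-Hochberg adjusted p below 0.05 over all genes tested and a log2 fold change (log2FC) of at least 0.5 in either direction. Gene symbols were known only for genes that the authors had listed as significant in at least 1 comparison. Each of the 9 claudins, and each gene of the other lists, had therefore passed at least 1 such list. Their shares of calls are not those of an unselected family, and the shares over all genes given beside them are not a like background.

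At 6 months the sample labels and the authors' comparison tables name the groups differently. The counts matched those tables only with the labelled control libraries taken as the tables' lithium group, the labelled lithium libraries as the tables' LiAM group and the labelled LiAM libraries as the tables' control group. Aqp2, the vasopressin-regulated water channel of the collecting duct, had a median of 82.1 CPM in the labelled lithium libraries, 30.6 CPM in the labelled control libraries and 198.5 CPM in the labelled LiAM libraries. At 14 days its medians were 99.0 CPM in LiAM, 19.4 CPM in lithium and 178.3 CPM in control libraries. Which naming is right was not settled, so each 6 month group is called by its label, with its role in the tables where a direction is drawn.

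To show the DNA beside which transcription of these claudins starts, 4 promoters were taken from RefSeq (build GRCr8, 250 bases before to 50 bases after the gene's start), where 7 of the 9 claudins had an entry (all but Cldn2 and Cldn4). Cldn7 and Cldn3 are shown as distal claudins called in lithium against control at both short times, Cldn1 as the barrier claudin called beside them, and Cldn8 as the collecting duct claudin that was not called at 14 days. Their windows are Cldn7 chr10:55188420-55188719 (plus strand), Cldn3 chr12:27346498-27346797 (minus strand), Cldn1 chr11:87926126-87926425 (plus strand) and Cldn8 chr11:41364281-41364580 (minus strand). Capitals mark matches, on either strand, to the GC box GGGCGG, the ETS core AGGAAG or the E-box CACCTG.
Cldn7: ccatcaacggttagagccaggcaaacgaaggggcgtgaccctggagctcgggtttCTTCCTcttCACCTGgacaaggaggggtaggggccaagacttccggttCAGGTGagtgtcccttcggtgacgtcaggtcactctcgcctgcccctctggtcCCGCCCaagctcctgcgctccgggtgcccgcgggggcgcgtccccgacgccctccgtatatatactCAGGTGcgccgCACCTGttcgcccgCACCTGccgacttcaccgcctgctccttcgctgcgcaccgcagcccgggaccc
Cldn3: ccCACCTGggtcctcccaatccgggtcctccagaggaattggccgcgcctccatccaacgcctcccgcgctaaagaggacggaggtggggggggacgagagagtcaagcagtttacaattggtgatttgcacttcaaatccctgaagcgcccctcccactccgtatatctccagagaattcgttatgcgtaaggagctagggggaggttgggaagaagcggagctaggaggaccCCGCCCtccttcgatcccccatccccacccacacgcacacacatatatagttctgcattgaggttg
Cldn1: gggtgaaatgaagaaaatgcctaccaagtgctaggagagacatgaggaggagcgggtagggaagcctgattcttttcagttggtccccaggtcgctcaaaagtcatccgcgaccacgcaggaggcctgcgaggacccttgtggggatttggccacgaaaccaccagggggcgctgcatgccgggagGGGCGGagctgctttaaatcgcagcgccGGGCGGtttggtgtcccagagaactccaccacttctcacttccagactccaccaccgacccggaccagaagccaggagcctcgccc
Cldn8: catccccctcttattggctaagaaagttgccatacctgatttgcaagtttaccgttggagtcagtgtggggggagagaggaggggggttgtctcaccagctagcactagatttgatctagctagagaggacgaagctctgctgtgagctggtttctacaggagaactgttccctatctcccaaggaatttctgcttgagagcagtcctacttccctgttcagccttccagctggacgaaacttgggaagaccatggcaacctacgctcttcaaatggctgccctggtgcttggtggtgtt

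Cldn7 held 5 E-box matches, 1 GC box and 1 ETS core, Cldn3 held 1 E-box and 1 GC box, Cldn1 held 2 GC boxes, and Cldn8 held none of the 3. Over 33469 promoters of the same length, 33.1% held a GC box, 34.5% an ETS core and 18.8% an E-box. The grainyhead core AACNGGTT, present in 2.1% of promoters, and the TATA box TATAAA, present in 14.2%, matched nowhere in the 4 windows. The matches overlap no other motif searched. GC content was 67.0% in the Cldn7 window, 58.0% in Cldn3, 60.7% in Cldn1 and 51.3% in Cldn8, against a median of 51.7% over all promoters. These matches are letters in a window, and no binding was measured.

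At 14 days Cldn4, Cldn7, Cldn3 and Cldn1 rose with lithium, and Cldn4 had the largest log2FC of the 9. Lithium against control called 4 claudins higher (Cldn4, Cldn7, Cldn3 and Cldn1) and 0 of 9 lower, while 8.49% of the 14179 genes tested were called higher and 3.63% lower. By DESeq2 the count of claudins was also 4 higher and 0 lower. At an unadjusted p below 0.05 edgeR gave 2 lower, beside 2563 of the 14179 genes. The median log2FC of the 9 was 0.36, beside 0.00 over all genes.

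Cldn4, which with Cldn8 forms the chloride path of the collecting duct, had 46.0, 49.0, 45.5, 47.6 and 68.3 CPM in the 14-day LiAM libraries. In the lithium libraries it ran between 73.2 and 102.5 CPM with a median of 79.8, and in the control libraries between 6.88 and 10.5 CPM with a median of 8.30. The 3 groups did not overlap, with lithium highest, LiAM between and control lowest. The mean was 9.87-fold higher in lithium than in control (log2FC 3.30, SE 0.12, adjusted p = 2.2e-12, edgeR) and 6.08-fold higher in LiAM than in control (log2FC 2.596, SE 0.12, adjusted p = 1.1e-10). LiAM against lithium gave a log2FC of -0.71 (SE 0.11, adjusted p = 0.0012), and Cldn4 was the 1 claudin called in that comparison.

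Cldn7, which is found in distal tubule cells at the junction and along the lateral membrane, had 21.7, 27.8, 22.4, 25.2 and 27.7 CPM in the LiAM libraries at 14 days. The lithium libraries ran between 21.2 and 29.3 CPM with a median of 27.9, and the control libraries between 8.45 and 10.9 CPM with a median of 9.29. Both treated groups stood above every control library and overlapped with each other. Its log2FC was 1.51 in lithium against control (SE 0.09, adjusted p = 1.7e-09) and 1.39 in LiAM against control (SE 0.10, adjusted p = 1.1e-08). For LiAM against lithium the value was -0.12 (SE 0.09, adjusted p = 0.53).

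Cldn3, a barrier claudin of the distal nephron, had 15.6, 11.1, 8.56, 10.1 and 12.7 CPM in the LiAM libraries, between 12.7 and 21.5 CPM in the lithium libraries (median 17.1) and between 7.31 and 13.1 CPM in the control libraries (median 9.80). The lithium and control ranges overlapped by a narrow margin, and 4 of the 5 LiAM values lay inside the control range. Lithium against control gave a log2FC of 0.75 (SE 0.16, adjusted p = 0.0019), LiAM against control 0.19 (adjusted p = 0.50) and LiAM against lithium -0.56 (SE 0.17, adjusted p = 0.073). The last value passed the threshold by DESeq2 (-0.55, adjusted p = 0.032) and by edgeR without lithium 4 (-0.63, adjusted p = 0.040) or without LiAM 1 (-0.69, adjusted p = 0.034), and the count of claudins called was then 2.

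Cldn1 had 38.8, 25.7, 18.5, 37.3 and 28.1 CPM in the LiAM libraries at 14 days, against 24.9 to 45.9 CPM in the lithium libraries (median 36.9) and 18.4 to 28.9 CPM in the control libraries (median 20.1). All 3 ranges overlapped. Its log2FC was 0.70 in lithium against control (SE 0.18, adjusted p = 0.0061), 0.41 in LiAM against control (SE 0.19, adjusted p = 0.14) and -0.29 in LiAM against lithium (SE 0.18, adjusted p = 0.43).

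**Figure D1:**
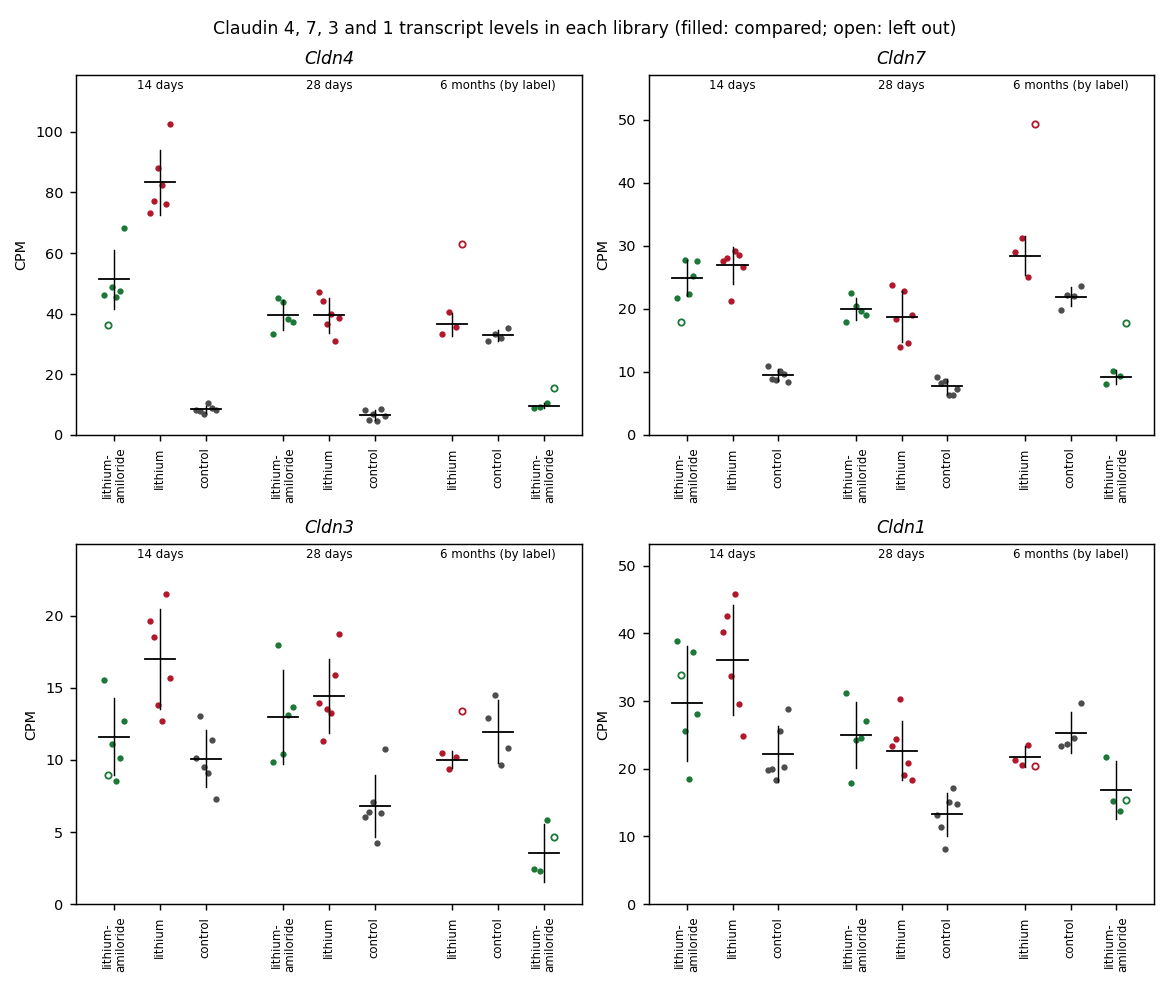
CPM of Cldn4, Cldn7, Cldn3 and Cldn1 in every library, by group and time, with LiAM, lithium and control from left to right at 14 and 28 days and labelled lithium, labelled control and labelled LiAM at 6 months. Filled points are compared libraries, open circles are the 3 libraries left out, and bars are the mean ± SD of the compared ones. At 14 days the Cldn4 points of lithium (73.2 to 102.5 CPM) lie above those of LiAM (45.5 to 68.3 CPM), and both lie above control (6.88 to 10.5 CPM).

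LiAM against control at 14 days called 2 claudins higher, Cldn4 and Cldn7, and 1 lower, Cldn10, beside 5.04% of all genes higher and 3.27% lower. LiAM against lithium called 0 higher and 1 lower, beside 0.79% of all genes higher and 1.4% lower. At an unadjusted p below 0.05 edgeR gave 0 higher in that comparison, beside 1079 of the 14179 genes. DESeq2 called 0 higher and 2 lower, Cldn4 and Cldn3.

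Cldn10 fell in both treated groups at 14 days. It had 112.9, 121.7, 118.2, 123.1 and 127.2 CPM in the LiAM libraries, 87.2 to 143.6 CPM in the lithium libraries (median 132.4) and 162.7 to 183.5 CPM in the control libraries (median 170.6). No treated library reached the lowest control library. LiAM against control gave a log2FC of -0.52 (SE 0.10, adjusted p = 0.00091) and was called, although without control 4 it came to -0.49 and without LiAM 1 to -0.50, short of the fold threshold. Lithium against control gave -0.49 (SE 0.09, adjusted p = 0.00059) and missed the fold threshold in turn. The counts do not separate the isoforms of Cldn10 that belong to different segments.

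The remaining claudins moved little at 14 days. Cldn2 averaged 410.8 ± 34.3 CPM in LiAM (SD, n = 5), 402.0 ± 31.5 CPM in lithium and 454.4 ± 37.4 CPM in control (SD, n = 6 each), and lithium against control gave a log2FC of -0.18 with an adjusted p of 0.054 in edgeR. Cldn8 averaged 89.2 ± 21.98 CPM in LiAM (SD, n = 5), 85.5 ± 19.3 CPM in lithium and 66.3 ± 19.1 CPM in control (SD, n = 6 each). In lithium against control Cldn8 gave 0.36 (SE 0.21, adjusted p = 0.21). Cldn16 averaged 43.3, 43.8 and 45.9 CPM in LiAM, lithium and control, and Cldn19 averaged 13.5, 14.5 and 16.3 CPM. The 3 groups overlapped for all 4 of these genes, and the log2FC of Cldn16 and Cldn19 in the 3 comparisons lay between -0.28 and -0.02.

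At 28 days Cldn4, Cldn7, Cldn3, Cldn1, Cldn8 and Cldn16 were higher in both lithium-fed groups than in control, and no claudin was called between LiAM and lithium. Lithium against control called 6 claudins higher, Cldn4, Cldn7, Cldn3, Cldn1, Cldn16 and Cldn8, and 0 lower, beside 5.49% of the 14140 genes tested higher and 3.59% lower. LiAM against control called the same 6 higher and 0 lower, beside 9.82% of genes higher and 6.79% lower. DESeq2 gave 6 higher and 0 lower in both. At an unadjusted p below 0.05 edgeR gave 0 lower in lithium and 1 lower, Cldn10, in LiAM. Over all genes 2459 and 3414 of 14140 were lower at that p. The 2 comparisons share the control libraries. The median log2FC of the 9 was 0.77 in lithium and 0.91 in LiAM, beside 0.01 and 0.00 over all genes.

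LiAM against lithium at 28 days called 0 claudins in either direction by edgeR and 0 by DESeq2, and 0 of 9 had an unadjusted p below 0.05. At that p 711 of 14140 genes were higher and 859 lower. Over all genes 0.339% were called higher and 0.099% lower, so few genes of any kind were called. The 9 log2FC values of that comparison lay between -0.16 and 0.27. The LiAM and lithium ranges overlapped for all 9, and how often such ranges overlap over all genes was not counted.

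Cldn4 had 33.2, 45.2, 44.0, 38.1 and 37.3 CPM in the 28-day LiAM libraries, 30.9 to 47.2 CPM in the lithium libraries (median 39.2) and 4.58 to 8.60 CPM in the control libraries (median 6.48). Every lithium-fed library was above every control library, and the means of LiAM and lithium were 39.6 and 39.5 CPM. The log2FC was 2.58 in lithium against control (SE 0.15, adjusted p = 4.2e-09) and also 2.58 in LiAM against control (SE 0.15, adjusted p = 5.1e-09). LiAM against lithium gave a log2FC of -0.0011 (SE 0.14, adjusted p = 0.998), where at 14 days it had been -0.71.

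Cldn7 followed the same order, with 17.9, 22.6, 20.5, 19.6 and 19.1 CPM in LiAM, 14.0 to 23.8 CPM in lithium (median 18.7) and 6.39 to 9.24 CPM in control (median 7.80). Its log2FC was 1.28 in lithium (SE 0.13, adjusted p = 6.8e-06) and 1.36 in LiAM (SE 0.14, adjusted p = 3.0e-06), each against control. Cldn3 had 9.82, 18.0, 10.4, 13.1 and 13.7 CPM in LiAM, 11.3 to 18.7 CPM in lithium (median 13.7) and 4.21 to 10.8 CPM in control (median 6.37). The lithium libraries were all above the controls, and 2 of the 5 LiAM libraries were not. Cldn3 gave a log2FC of 1.08 in lithium (SE 0.19, adjusted p = 0.0011) and 0.93 in LiAM (SE 0.20, adjusted p = 0.0021).

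Cldn1 had 31.3, 18.0, 24.2, 24.6 and 27.1 CPM in LiAM at 28 days, 18.3 to 30.3 CPM in lithium (median 22.1) and 8.08 to 17.1 CPM in control (median 14.0). Both treated groups lay above the control range. Its log2FC was 0.77 in lithium against control (SE 0.17, adjusted p = 0.0047) and 0.91 in LiAM against control (SE 0.17, adjusted p = 0.00095).

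Cldn8, the other claudin of the collecting duct's chloride path, was called higher in both groups, but 1 control library stood apart. It had 72.1, 51.2, 69.7, 75.6 and 83.0 CPM in the LiAM libraries and 23.0 to 82.4 CPM in the lithium libraries (median 63.9). Of the control libraries, control 1 had 73.9 CPM and the other 5 had 12.2 to 24.7 CPM. With all libraries the log2FC was 1.07 in lithium (SE 0.37, adjusted p = 0.049) and 1.34 in LiAM (SE 0.38, adjusted p = 0.012). Without control 1 the 2 values were 1.68 (SE 0.26, adjusted p = 0.00025) and 1.95 (adjusted p = 4.5e-05). The lithium call was lost when any 1 of 15 of the 17 libraries was left out, with log2FC values of 0.92 to 1.15, and was kept without control 1 or without lithium 5 (1.23, adjusted p = 0.019).

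The same control library stood apart for Cldn16. This gene had 32.3, 33.6, 36.2, 35.9 and 53.2 CPM in LiAM and 25.2 to 42.8 CPM in lithium (median 32.4), against 31.8 CPM in control 1 and 14.4 to 19.8 CPM in the other 5 controls. The LiAM libraries were all above the controls, and lithium overlapped with control only through control 1. The log2FC was 0.70 in lithium against control (SE 0.17, adjusted p = 0.010) and 0.90 in LiAM against control (SE 0.18, adjusted p = 0.0014). Without control 1 the values were 0.87 (adjusted p = 0.00054) and 1.07 (adjusted p = 6.2e-05).

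**Figure D2:**
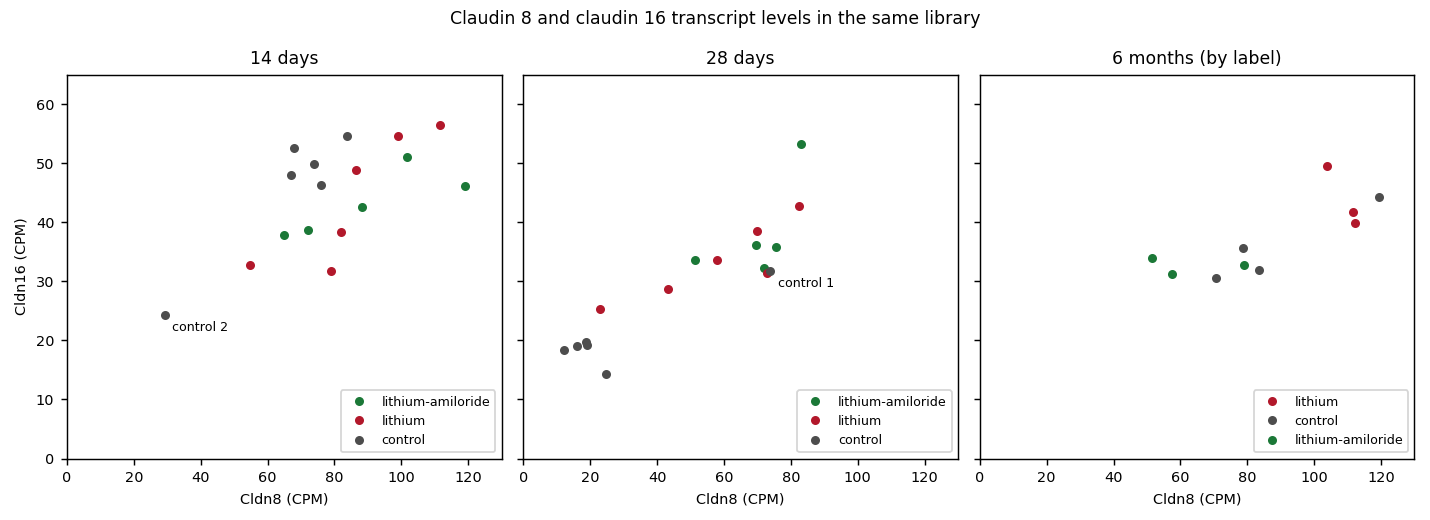
Cldn16 (vertical axis, CPM) against Cldn8 (horizontal axis, CPM) in every compared library, 1 point per library, coloured by group, with 1 panel for each time. At 28 days control 1 (73.9 CPM of Cldn8 and 31.8 CPM of Cldn16) lies among the lithium-fed libraries, and at 14 days control 2 (29.4 and 24.3 CPM) lies below the other libraries compared.

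Other measures set the 28-day controls apart too. Their part in these 2 results, and in every other comparison that uses the 28-day controls, was not tested. The 13 mitochondrially encoded genes took 15.8% to 22.7% of the counts in the LiAM libraries, 14.5% to 24.3% in the lithium libraries and 18.2% to 33% in the control libraries, where control 1 had 18.2% and the other 5 had 31.1% to 33%. The 6 markers of the thick ascending limb, all 6 measured and none at 0 in these groups, summed to 2195 to 3402 CPM in LiAM, 1405 to 3326 CPM in lithium and 1053 to 2187 CPM in control, with control 1 at the top of the control range. Of these 6 markers 3 were called higher in LiAM against control and 2 in lithium against control, beside 9.82% and 5.49% of all genes. Among the markers called was Slc12a1, the sodium-potassium-chloride cotransporter, with log2FC values of 1.11 and 1.06. The 5 podocyte markers went the other way, with 467.2 to 653.6 CPM in LiAM, 472.9 to 606.7 CPM in lithium and 592.0 to 1100 CPM in control. At 14 days, control 2 was low in Cldn8 (29.4 CPM, against 66.9 to 83.7 CPM in the other controls), in Cldn16 (24.3 CPM, against 46.2 to 54.5 CPM) and in the thick ascending limb sum (2134 CPM, against 3697 to 4676 CPM). With the 13 mitochondrially encoded genes left out of scaling and testing, 6 claudins were called in both 28-day comparisons with control. That setting removes few genes and cannot tell what the make-up of the control libraries contributes.

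Cldn19, the partner of Cldn16, did not rise with it at 28 days. Its CPM was 8.87, 10.3, 9.21, 7.58 and 11.9 in LiAM, 7.03 to 11.8 in lithium (median 7.93) and 7.21 to 13.5 in control (median 10.2), with all ranges overlapping. The log2FC was -0.22 in lithium against control (adjusted p = 0.32) and -0.09 in LiAM against control (adjusted p = 0.69). Cldn10 averaged 115.6 ± 9.74 CPM in LiAM (SD, n = 5), 124.8 ± 10.9 CPM in lithium and 136.7 ± 15.3 CPM in control (SD, n = 6 each). LiAM against control gave a log2FC of -0.25 for Cldn10 (SE 0.08, adjusted p = 0.023), below the fold threshold. Cldn2 averaged 401.6 ± 23.1 CPM in LiAM (SD, n = 5), 379.3 ± 18.6 CPM in lithium and 357.2 ± 17.1 CPM in control (SD, n = 6 each), with a log2FC of 0.16 in LiAM against control (SE 0.05, adjusted p = 0.025), also below it.

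**Figure D3:**
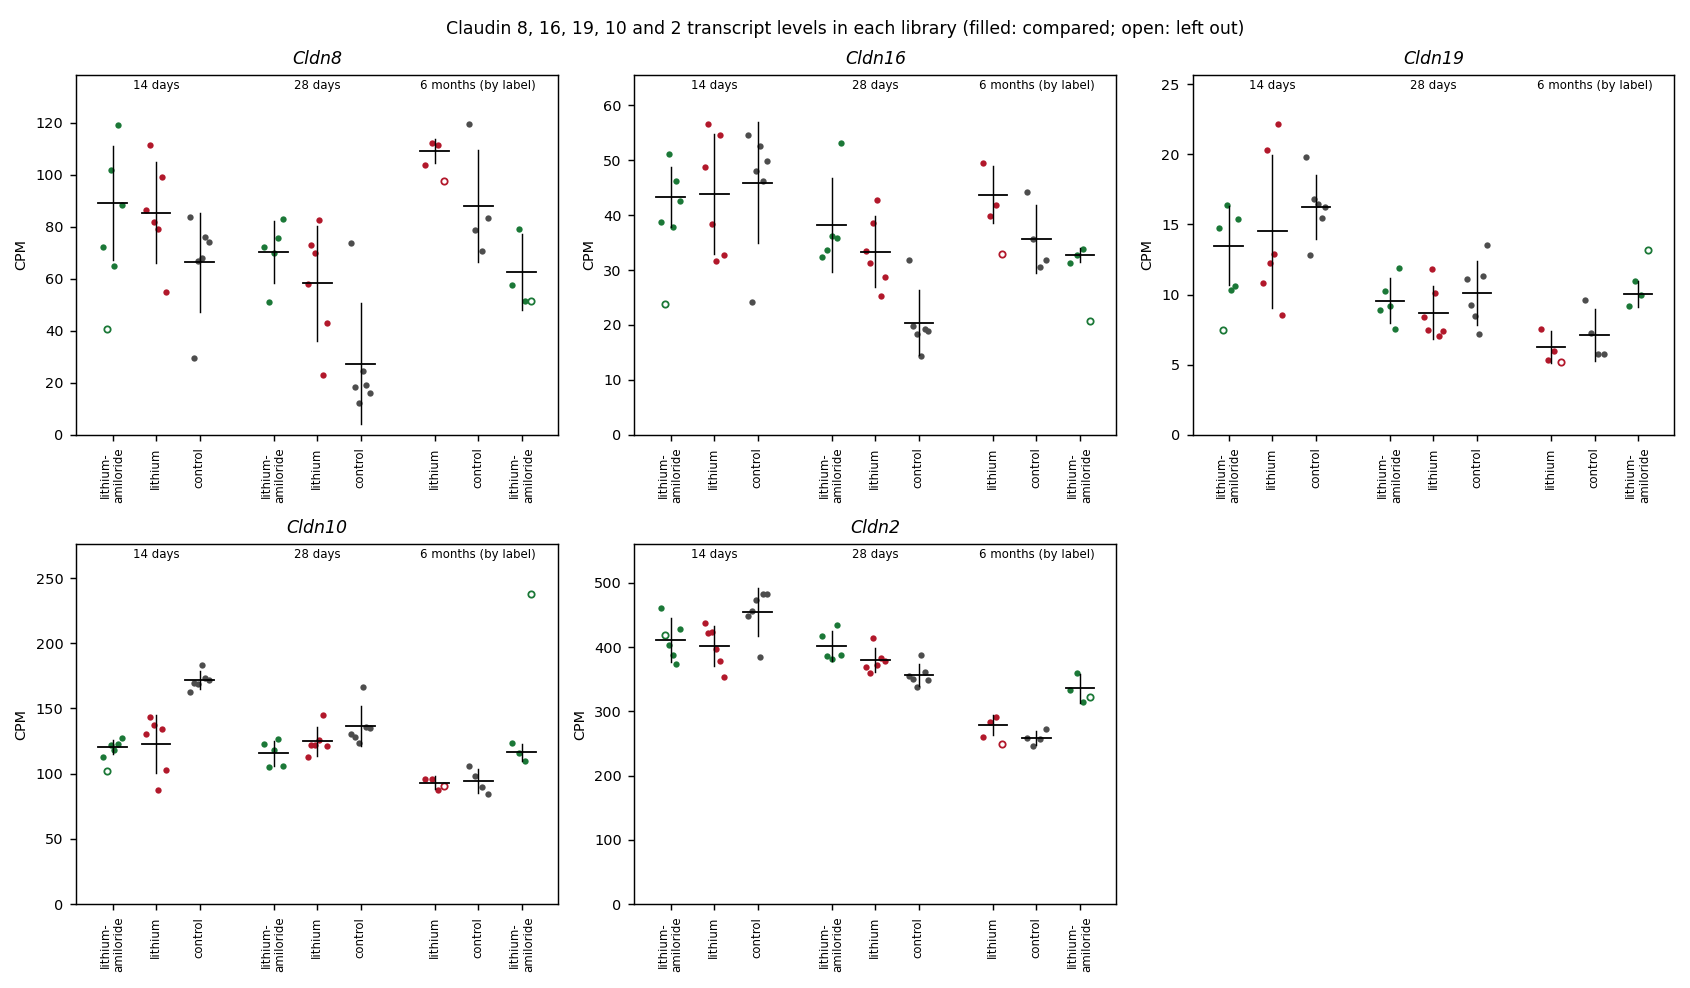
CPM of Cldn8, Cldn16, Cldn19, Cldn10 and Cldn2 in every library, arranged by group and time as in the plot of Cldn4, Cldn7, Cldn3 and Cldn1, with open circles for libraries left out and bars for the mean ± SD of those compared. Cldn10 at 14 days is lower in both treated groups (87.2 to 143.6 CPM) than in control (162.7 to 183.5 CPM), and Cldn2 stays between 245.6 and 483.3 CPM in the compared libraries of all groups.

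Whether the responses differed between the 2 short exposures was tested in 1 fit over both times. Each time is a separate series with its own controls, so length of exposure and series cannot be told apart. The lithium response at 28 days minus that at 14 days was called for 1 claudin of 9, Cldn4, which was lower by a log2 difference of -0.71 (SE 0.19, adjusted p = 0.028). Of the 14525 genes tested 1.39% were called higher and 2.45% lower. Without the 14-day lithium 6 library the Cldn4 difference was -0.66 (adjusted p = 0.053), and without the 28-day control 5 library it was -0.64 (adjusted p = 0.054). No claudin was called higher by edgeR, where 3 had an unadjusted p below 0.05, beside 1869 of the 14525 genes. DESeq2 called 1 claudin higher. That gene was Cldn16, with an edgeR difference of 0.79 (SE 0.26, adjusted p = 0.056) and a DESeq2 difference of 0.78 (adjusted p = 0.038). Cldn2 had a difference of 0.28 (SE 0.08, adjusted p = 0.041), which is below the fold threshold, and Cldn8 had 0.72 (SE 0.44, adjusted p = 0.30). Without the 28-day control 1 library the differences of Cldn8 and Cldn16 were 1.32 (adjusted p = 0.011) and 0.94 (adjusted p = 0.010), and 3 claudins were called. The count was 2, with Cldn16 added, without any 1 of 5 other libraries, which were control 2, lithium 2 and lithium 5 of 14 days and lithium 5 and LiAM 5 of 28 days.

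The amiloride response, LiAM against lithium, did not differ between the times for any claudin by this rule, nor for any gene. EdgeR called 0% of genes higher and 0% lower, with 675 higher and 562 lower at an unadjusted p below 0.05, and DESeq2 called 1 gene higher and 0 lower. Among the claudins 1 had an unadjusted p below 0.05 and DESeq2 called 0. It was Cldn4, whose difference of 0.70 (SE 0.18) had an unadjusted p of 0.000485 and an adjusted p of 0.27.

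At 6 months Cldn4, Cldn7 and Cldn3 separated the labelled lithium and labelled control libraries from the labelled LiAM libraries, the group that the authors' tables name control. Labelled control against labelled LiAM, which is lithium against control in the tables' naming, called 4 claudins higher (Cldn4, Cldn7, Cldn3 and Cldn1) and 0 lower. Over the 14532 genes tested 5.44% were called higher and 2.1% lower. At an unadjusted p below 0.05 edgeR gave 3 lower, beside 2179 of the 14532 genes, and DESeq2 called 0 lower. Labelled lithium against labelled LiAM, which is LiAM against control in the tables, called 4 higher (Cldn4, Cldn7, Cldn3 and Cldn8) and 1 lower (Cldn19), beside 5.77% of genes higher and 2.01% lower. Labelled lithium against labelled control, LiAM against lithium in the tables, called 0 claudins by edgeR and 0 by DESeq2, beside 1.39% of genes higher and 0.599% lower. At an unadjusted p below 0.05 it gave 2 claudins, Cldn7 and Cldn16, both higher, beside 1269 of the 14532 genes higher.

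Cldn4 had 33.3, 40.6 and 35.5 CPM in the labelled lithium libraries, 31.1, 33.1, 32.0 and 35.4 CPM in the labelled control libraries and 8.88, 9.33 and 10.6 CPM in the labelled LiAM libraries. The labelled LiAM libraries were far below both others, which overlapped. The log2FC was 1.79 in labelled control (SE 0.09, adjusted p = 3.8e-06) and 1.92 in labelled lithium (SE 0.09, adjusted p = 2.9e-06), each against labelled LiAM. Labelled lithium against labelled control gave 0.14 (SE 0.08, adjusted p = 0.43).

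Cldn7 had 29.1, 31.2 and 25.1 CPM in labelled lithium, 19.9, 22.2, 22.1 and 23.7 CPM in labelled control and 8.01, 10.2 and 9.41 CPM in labelled LiAM. No 2 of the 3 groups overlapped, with labelled lithium highest. Against labelled LiAM the log2FC was 1.26 in labelled control (SE 0.11, adjusted p = 7.6e-05) and 1.62 in labelled lithium (SE 0.11, adjusted p = 1.2e-05). Between labelled lithium and labelled control it was 0.36 (SE 0.10, adjusted p = 0.084), which did not pass. With the 2 left-out libraries put back, labelled control against labelled LiAM gave 0.94 with an adjusted p of 0.058, and labelled LiAM 4 had 17.8 CPM.

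Cldn3 had 10.5, 9.35 and 10.2 CPM in labelled lithium, 12.9, 14.5, 9.62 and 10.8 CPM in labelled control and 2.46, 2.32 and 5.85 CPM in labelled LiAM. The labelled LiAM libraries lay below all others. Its log2FC against labelled LiAM was 1.77 in labelled control (SE 0.29, adjusted p = 0.0031) and 1.49 in labelled lithium (SE 0.30, adjusted p = 0.0081). Cldn1 had 21.3, 20.5 and 23.6 CPM in labelled lithium, 23.3, 23.7, 24.6 and 29.7 CPM in labelled control and 21.7, 15.2 and 13.7 CPM in labelled LiAM. Only labelled control stood clear of labelled LiAM for Cldn1, with a log2FC of 0.59 (SE 0.15, adjusted p = 0.023). That call was lost without labelled control 4, labelled LiAM 2 or labelled LiAM 3, at log2FC values of 0.51, 0.51 and 0.46.

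Cldn8 had 103.9, 112.2 and 111.6 CPM in labelled lithium, 119.4, 78.8, 70.6 and 83.5 CPM in labelled control and 57.4, 79.1 and 51.4 CPM in labelled LiAM. Labelled lithium lay above labelled LiAM (log2FC 0.80, SE 0.19, adjusted p = 0.021), and labelled control overlapped with it (log2FC 0.50, SE 0.18, adjusted p = 0.084). Cldn19 had 7.53, 5.32 and 5.96 CPM in labelled lithium, 9.63, 7.28, 5.74 and 5.76 CPM in labelled control and 9.17, 10.96 and 9.99 CPM in labelled LiAM. It was called lower in labelled lithium against labelled LiAM (log2FC -0.69, SE 0.21, adjusted p = 0.0496). Both calls rested on few libraries. That of Cldn8 was lost without any 1 of 4 of the 10 libraries, with log2FC values of 0.67 to 0.78, and that of Cldn19 without any 1 of 6, with values of -0.75 to -0.57. Without labelled lithium 2, labelled lithium 3 or labelled LiAM 3 both were lost, and 3 claudins were then called.

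Cldn16 averaged 43.7 ± 5.15 CPM in labelled lithium, 35.6 ± 6.16 CPM in labelled control and 32.7 ± 1.3 CPM in labelled LiAM (SD, n = 3, 4 and 3), and its log2FC of 0.42 in labelled lithium against labelled LiAM had an adjusted p of 0.062 in edgeR. Cldn10 had 95.8, 96.1 and 87.4 CPM in labelled lithium, 105.6, 98.0, 89.7 and 84.7 CPM in labelled control and 123.4, 115.7 and 109.8 CPM in labelled LiAM. Cldn2 had 260.8, 283.7 and 291.1 CPM in labelled lithium, 258.9, 245.6, 256.4 and 272.1 CPM in labelled control and 333.7, 359.6 and 314.6 CPM in labelled LiAM. For both genes the labelled LiAM libraries lay above all others. The log2FC of labelled control against labelled LiAM was -0.29 for Cldn10 (SE 0.08, adjusted p = 0.031) and -0.37 for Cldn2 (SE 0.07, adjusted p = 0.0049), and neither reached the fold threshold.

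**Figure D4:**
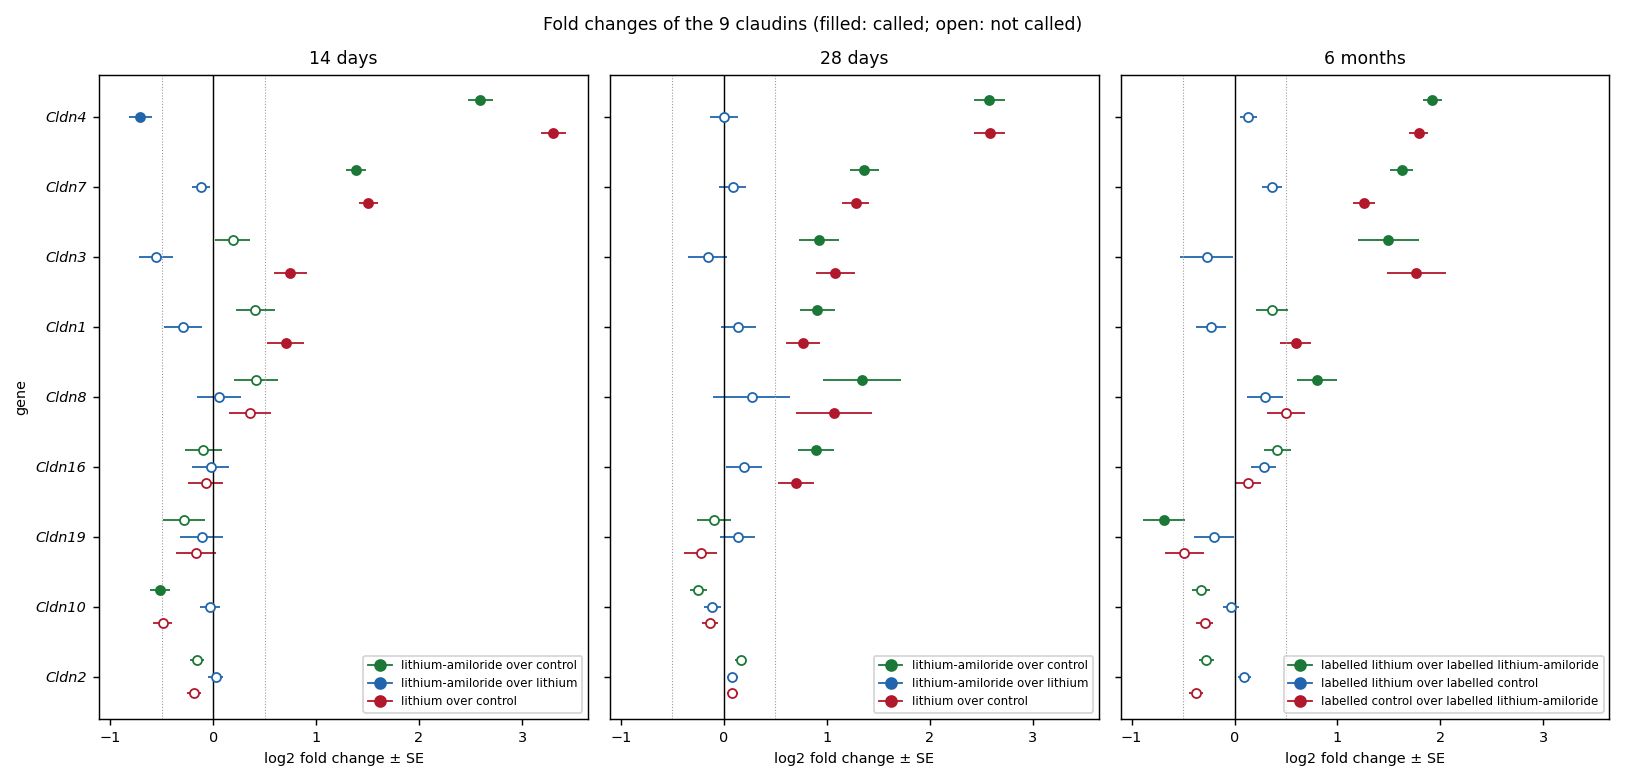
Log2FC of the 9 claudins with SE bars in the 3 comparisons of each time, filled where called (adjusted p below 0.05 and a log2FC of at least 0.5 in size) and open where not. Cldn4 and Cldn7 lie furthest to the right in both comparisons with control at 14 days (3.30 and 1.51 in lithium, 2.596 and 1.39 in LiAM), and between LiAM and lithium at the short times Cldn4 at 14 days (-0.71) is the filled point.

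Of the 9 claudins, Cldn4 and Cldn7 were called in every comparison of a lithium-fed group with control at 14 and 28 days and in both 6 month comparisons with labelled LiAM. With all deposited libraries the Cldn7 call in labelled control against labelled LiAM was lost (log2FC 0.94, edgeR adjusted p = 0.058). The levels of other epithelial markers moved in the same libraries, and their part in the claudin values was not tested. The 7 principal cell markers of the collecting duct (Aqp2, Aqp3, Scnn1b, Scnn1g, Avpr2, Fxyd4 and Hsd11b2) summed at 14 days to 450.3 to 569.2 CPM in LiAM, 123.2 to 194.3 CPM in lithium and 504.9 to 715.6 CPM in control. All 7 were called lower in lithium against control and all 7 higher in LiAM against lithium, while Cldn4 and Cldn7 had been called higher in the first of these. Over all genes 3.63% were called lower in the first comparison and 0.79% higher in the second. At 28 days 5 of the 7 markers were called lower in lithium against control and 6 of 7 higher in LiAM against lithium. Over all genes these shares were 3.59% and 0.339%. At 6 months 5 of the 7 markers were called lower in labelled control against labelled LiAM, beside 2.1% of all genes. Of the 8 tubular injury genes, which include Havcr1, Lcn2 and keratins, 8 were called higher in lithium against control at 14 days. In LiAM against lithium 4 of the 8 were called lower. Over all genes these shares were 8.49% and 1.4%. Against control at 28 days 6 of the 8 were called higher in lithium and 4 in LiAM. At 6 months 5 were called higher in labelled control and 4 in labelled lithium, against labelled LiAM. Over all genes these shares were 5.49%, 9.82%, 5.44% and 5.77%. Of the 7 intercalated cell markers, those of the acid- and base-secreting cells of the collecting duct, 1 was called lower in lithium against control at 14 days. At 28 days 5 of 7 were called higher in lithium against control and 1 of 7 in LiAM against control. Over all genes 3.63% were called lower in the 14-day comparison, and 5.49% and 9.82% higher in those of 28 days. The intercalated cell sums at 28 days were 478.0 to 647.4 CPM in LiAM, 384.0 to 931.8 CPM in lithium and 322.8 to 779.4 CPM in control. At 6 months 5 of 7 were called higher in labelled control and 5 of 7 in labelled lithium, each against labelled LiAM. Over all genes these shares were 5.44% and 5.77%. The intercalated cell sums at 6 months were 846.6 to 947.7 CPM in labelled lithium, 862.9 to 1274 CPM in labelled control and 578.5 to 658.0 CPM in labelled LiAM.

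Claudins outside the 9 were taken from a list of 12, of which 7 had a symbol in the tables. At 14 days 4 of 7 were called higher in lithium against control and 4 of 7 in LiAM against control, with 0 lower in each by edgeR, also at an unadjusted p below 0.05, and the same counts by DESeq2. Over all genes 8.49% and 5.04% were called higher and 3.63% and 3.27% lower. At the unadjusted p 2563 and 2131 of the 14179 genes were lower. At 28 days 6 of the 7 passed the filter on low counts, of which 2 were called higher and 1 lower in lithium and 3 higher and 1 lower in LiAM, each against control. Over all genes 5.49% were called higher and 3.59% lower in lithium and 9.82% and 6.79% in LiAM. At 6 months 1 of 6, Cldn6, was called higher in each comparison with labelled LiAM, beside 5.44% of all genes in labelled control and 5.77% in labelled lithium. Cldn6, a claudin of embryonic epithelia, was called higher in every comparison of a lithium-fed group with control at 14 and 28 days. It had 14.2 to 16.6 CPM in LiAM (median 14.4), 16.7 to 20.4 CPM in lithium (median 19.2) and 3.73 to 8.09 CPM in control (median 6.33) at 14 days. The treated ranges lay above the control range, with log2FC values of 1.61 in lithium (SE 0.13, adjusted p = 6.0e-08) and 1.27 in LiAM (adjusted p = 2.9e-06). At 28 days its log2FC was 1.56 in lithium and 1.61 in LiAM, and at 6 months it was 1.40 in labelled control and 1.66 in labelled lithium against labelled LiAM.

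Cldn9, which lies next to Cldn6 on chromosome 10 with 0 protein-coding genes between them in RefSeq, was called at 14 days in lithium (log2FC 1.17, adjusted p = 0.00025) and in LiAM (0.93, adjusted p = 0.0040), each against control. At 28 days it gave 0.16 and 0.25, and the difference between the lithium responses was -0.9992 (SE 0.28, adjusted p = 0.033). Cldn23 was called higher in lithium against control at 14 days (log2FC 0.98, adjusted p = 0.041) and at 28 days (1.72, adjusted p = 0.010). It was called lower in LiAM against lithium at 14 days (-1.36, adjusted p = 0.049). Its group means at 14 days were 0.93 CPM in LiAM, 2.38 CPM in lithium and 1.19 CPM in control. At 28 days Cldn23 was also called higher in LiAM against control, at group means of 1.25 and 0.45 CPM. Cldn5, an endothelial claudin, was called lower at 28 days in lithium (-0.58, adjusted p = 0.025) and in LiAM (-0.83, adjusted p = 0.0025). At the same time 3 of the 4 endothelial markers with a symbol were called lower in lithium and 4 of 4 in LiAM, each against control. Over all genes these shares were 3.59% and 6.79%. Cldn14 was called in LiAM against control at 14 days (1.87, adjusted p = 0.040), at means of 0.80 and 0.20 CPM. The identifier listed as Cldn17 was called at 14 days in both comparisons with control (1.56 in lithium and 1.68 in LiAM) and at 28 days in LiAM against control (1.61), but that identifier also carries another gene's name in the study's material, so which gene it is remains uncertain. Cldn15 was not called in any of these comparisons.

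Among neighbours on the chromosome, 2 pairs of the 9 claudins have no protein-coding gene between them in RefSeq, Cldn3 with Cldn4 on chromosome 12 and Cldn1 with Cldn16 on chromosome 11. Cldn3 and Cldn4 were called higher together in lithium against control at 14 and 28 days, with Cldn4 the larger in both. Cldn1 and Cldn16 differed at 14 days, where the log2FC in lithium against control was 0.70 for Cldn1 and -0.07 for Cldn16, and at 28 days the values were 0.77 and 0.70. None of the 9 overlaps another gene in RefSeq, though whether the counting used strand was not given in the sources used here.

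The scaffold and membrane partners of claudins were counted over a list of 20, of which 15 had a symbol. At 14 days 1 of 15 was called higher and 0 lower in lithium against control, and the same held for LiAM against control. Over all genes 8.49% and 5.04% were called higher and 3.63% and 3.27% lower. The 15, though, had been kept only if the authors listed them as significant. The gene called was Tjp3 (ZO-3), an adaptor that binds claudin tails, with log2FC values of 0.74 (adjusted p = 3.2e-06) and 1.07 (adjusted p = 8.6e-08). At 28 days 4 of 15 were called higher in lithium, Epcam (0.57), Tjp3 (0.69), Cxadr (0.71) and Ildr1 (0.67), and 5 of 15 in LiAM, with Tjp3 at 1.26, Epcam at 0.55, Cxadr at 1.04 and Ildr1 at 1.06, and 0 were lower in either. Over all genes 5.49% and 9.82% were called higher and 3.59% and 6.79% lower. Epcam binds Cldn7 and steadies it at the membrane, and Ildr1 sits at the corners where 3 cells meet. LiAM against lithium called 0 of 15 at either short time, and DESeq2 called 0 and 1. Over all genes edgeR called 0.79% higher and 1.4% lower at 14 days and 0.339% and 0.099% at 28 days. At an unadjusted p below 0.05 edgeR gave 4 at 14 days and 1 at 28 days, all of them higher. Over all genes 1079 of 14179 and 711 of 14140 were higher at that p. No partner was called lower by either tool at 14 or 28 days. Against control at an unadjusted p below 0.05, edgeR gave 4 lower in lithium and 2 in LiAM at 14 days. At 28 days it gave 2 lower in each. Over all genes these counts were 2563 and 2131 of 14179 at 14 days and 2459 and 3414 of 14140 at 28 days. At 6 months Tjp3 was called in all 3 comparisons, at 0.96 in labelled control and 1.48 in labelled lithium against labelled LiAM and at 0.53 in labelled lithium against labelled control. In all, 1, 3 and 2 of 15 were called higher in these comparisons, beside 5.44%, 5.77% and 1.39% of all genes.

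Of 15 genes listed as regulators of claudins, 10 had a symbol. Elf3, an epithelial ETS factor, had 57.4 to 71.4 CPM in LiAM, 53.7 to 73.0 CPM in lithium and 17.3 to 31.6 CPM in control at 14 days, so that both treated groups lay above control. Its log2FC was 1.40 in lithium (adjusted p = 4.4e-08) and 1.36 in LiAM (adjusted p = 1.6e-07) at 14 days and 1.41 and 1.96 at 28 days. Grhl2, a grainyhead factor known to drive Cldn4 transcription in the mouse, was called in the same comparisons with smaller values, 0.59 and 0.55 at 14 days and 0.83 and 1.03 at 28 days. At 6 months Elf3 gave 1.14 and Grhl2 0.54 in labelled control against labelled LiAM. Sgk1 and Wnk1, kinases of the aldosterone and chloride-sensing pathways, went the other way at 14 days. In lithium against control Sgk1 fell by 0.91 and Wnk1 fell by 0.56 on the log2 scale, and in LiAM against lithium they gave 1.15 and 0.62, with Klhl3 at 1.09. In all, regulators called higher and lower numbered 2 and 2 of 10 in lithium against control at 14 days, 3 and 0 in LiAM against lithium, and 2 and 0 in LiAM against control. Over all genes the shares higher and lower were 8.49% and 3.63%, 0.79% and 1.4%, and 5.04% and 3.27% in these comparisons. At 28 days the counts higher were 3 in lithium and 6 in LiAM against control and 0 between LiAM and lithium, where 2 had an unadjusted p below 0.05 and DESeq2 called 1. Over all genes 5.49%, 9.82% and 0.339% were called higher. Between LiAM and lithium 711 of 14140 genes were higher at an unadjusted p below 0.05. At 28 days 0 were called lower by either tool, with 1 lower in lithium and 2 in LiAM against control at an unadjusted p below 0.05. Over all genes 3.59% were called lower in lithium and 6.79% in LiAM, with 2459 and 3414 of 14140 lower at that p. Between LiAM and lithium 0.099% were called lower. At 6 months 2 were called higher in labelled control and 4 in labelled lithium against labelled LiAM, beside 5.44% and 5.77% of all genes, and 2, Sgk1 (0.88) and Wnk1 (0.76), in labelled lithium against labelled control, beside 1.39%.

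As a description with no test, each claudin was set against the 15047 genes that passed 1 low-count filter over the 44 compared libraries. Levels were log2 CPM after the mean of each time was subtracted. The libraries share treatments and depth, so these Pearson correlations carry the group differences with them. Cldn4 was most like Lgals3 (0.976) and Mab21l4 (0.97), and Cldn7 was most like Krt18 (0.959) and Itgb4 (0.957). For Cldn8 the closest were Ap1m2 (0.949), Lmbrd1 (0.943) and Mfsd4a (0.942), and for Cldn16 they were Slc12a1 (0.888), Acacb (0.872) and Gpr160 (0.871). Cldn3 came nearest to Proser2 (0.871), Agrn and Abca7 (0.851 each), Cldn10 to Pex13 (0.856), Glyctk (0.842) and RGD1309534 (0.832), and Cldn1 to Car2 (0.771), Klhdc7a (0.762) and Cbx2 (0.756). Cldn2 had Unc119b (0.77), Gpc4 (0.706) and Arhgap42 (0.698), and Cldn19 had Rpa1 at 0.699 between 2 genes with no symbol here (0.837 and 0.64).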

How the data were processed

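RNA-Seq libraries (Illumina TruSeq Stranded mRNA) of rat kidney cortex were used. Per the submitters' processing notes and the study's methods, the authors trimmed reads with cutadapt, aligned them with HISAT2 2.1.0 to Rnor_6.0 and counted reads per Ensembl gene with featureCounts (2.0.0 in the notes), and the deposited tables hold raw counts. The 9 deposited comparison tables of the authors hold DESeq2 mean normalised counts (a signal), log2 fold changes and p-values. Their mean counts were used to find the libraries compared, their fold changes to match the 6 month group names, and their gene symbols to name identifiers, and no value of theirs is reported. At each time 3 groups entered 1 edgeR 4.0.16 fit in R 4.3.3 (filterByExpr, TMM, quasi-likelihood test, Benjamini-Hochberg adjustment over all genes tested), and interactions were fitted over 14 and 28 days. DESeq2 1.42.0 was an alternative, as were size factors, no low-count filter, 2 groups only, no mitochondrially encoded genes, no fold threshold, all deposited libraries, each library left out and a replicate block. The procedure was tested on simulated data. Nothing says that libraries of a group are other than separate rats, and p-values measure the spread between them.

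The members and gene lists were chosen with earlier results of these data known. All 9 members were named in every group. Other lists were given as counts, with up to 4 called genes of smallest adjusted p named per comparison and every other claudin named once. The 3 genes of highest Pearson correlation were named for each member, apart from 2 that are not reported here. List genes with no symbol in the tables were not analysed here.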

Additional observations from a re-analysis of the deposited data

Results flagged for a closer look

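In 81 sets tested, each 1 claudin in 1 group, a single library lay far from the rest of its group 9 times. Chance gives about 1 in 20, or 4, if the sets are independent. They are not, since the claudins were measured in the same libraries, so the 2 counts are not alike. At 14 days control 2 was low in Cldn8 (29.37 CPM, against 66.9 to 83.74 CPM in the other controls) and in Cldn16 (24.26 CPM, against 46.24 to 54.54 CPM), control 4 was low in Cldn2 (383.9 CPM, against 447.8 to 483.3 CPM) and lithium 3 was low in Cldn7 (21.23 CPM, against 26.73 to 29.27 CPM). At 28 days control 1 was high in Cldn8 (73.86 CPM, against 12.19 to 24.65 CPM) and in Cldn16 (31.79 CPM, against 14.35 to 19.76 CPM), control 4 was high in Cldn10 (166.5 CPM, against 123.7 to 135.9 CPM) and LiAM 5 was high in Cldn16 (53.2 CPM, against 32.32 to 36.23 CPM). At 6 months labelled LiAM 4, which was not compared, was high in Cldn10 (238.1 CPM, against 109.8 to 123.4 CPM).

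The lithium response differed between 28 and 14 days by the interaction test for Cldn4, by -0.71 on the log2 scale with an edgeR adjusted p of 0.028. For Cldn2 it differed by 0.28 with an adjusted p of 0.041, which is under the fold threshold. Length of exposure and series cannot be told apart in this test.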

How the results depend on the processing

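Of 738 values of single claudins under the alternatives, 713 kept their direction and their side of the threshold, 11 gained a call, 5 lost one and 9 changed sign. These include the setting with no fold threshold, which reuses the main fit, so there no sign can change and calls can only be gained. The number of claudins called in LiAM against lithium at 14 days was 2 by DESeq2 and 2 with all deposited libraries (1 otherwise), through Cldn3, and that of the lithium response between times was 2 by DESeq2, through Cldn16. The signs that changed belong to values near 0. For LiAM against lithium they were Cldn8 at 14 days with all deposited libraries (-0.07972) and Cldn4 at 28 days with size factors (0.003694), no mitochondrially encoded genes (0.004959), 2 groups only (0.003633), DESeq2 (0.004345) and, as an alternative chosen after seeing the data, lithium 1 and control 1 both left out (0.05546). Under that last alternative the 28-day counts of claudins called were 6, 0 and 6, as before. With no fold threshold the calls gained were of Cldn10 and Cldn2, at the log2FC values of the main fit, and follow from dropping the fold cut. The cause of the remaining changes was not tested. Cldn8 in lithium against control at 28 days was lost with no low-count filter (adjusted p = 0.055) and with 2 groups only (adjusted p = 0.093).

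Most same-numbered libraries did not deviate together. Correlations passed 0.1 in 2 of 16 pairs at 14 days, 4 of 16 at 28 days and 0 of 9 at 6 months. The highest were 0.255, 0.236 and 0.0413. With so few libraries per group these values cannot settle whether the numbers mark pairs or batches, and the main fit used no pairing. With the replicate block Cldn10 in lithium against control at 14 days was called (-0.50), and 2 calls at 6 months were lost, Cldn1 (0.52, adjusted p = 0.092) in labelled control and Cldn19 (-0.70, adjusted p = 0.065) in labelled lithium, each against labelled LiAM. The block turned 3 values near 0, Cldn8 (-0.002251) and Cldn10 (0.003325) in LiAM against lithium at 14 days and Cldn19 in the lithium response between times (0.00453). No other call changed.

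With each library left out in turn, the counts of claudins called were 4 to 5, 1 to 2 and 2 to 4 at 14 days (lithium against control, LiAM against lithium, LiAM against control), 5 to 6, 0 to 0 and 6 to 6 at 28 days, 3 to 5, 0 to 0 and 3 to 5 at 6 months (labelled control against labelled LiAM, labelled lithium against labelled control, labelled lithium against labelled LiAM), and 0 to 3 and 0 to 0 for the 2 interactions. Signs changed for Cldn16 in lithium against control at 14 days (-0.2026 to 0.004559), for LiAM against lithium at 14 days in Cldn2 (-0.02136 to 0.05706), Cldn8 (-0.06994 to 0.1496), Cldn10 (-0.1106 to 0.01908), Cldn16 (-0.1021 to 0.06055) and Cldn19 (-0.2263 to 0.04685) and at 28 days in Cldn4 (-0.06064 to 0.05646), for Cldn19 in LiAM against control at 28 days (-0.1839 to 0.004695), for Cldn10 in labelled lithium against labelled control (-0.08598 to 0.02379), and between times for Cldn1 (-0.04834 to 0.1437) and Cldn19 (-0.1723 to 0.09946) in the lithium response and Cldn10 in the amiloride response (-0.1292 to 0.001831). All of these values were below the threshold throughout.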
